A study of Mus musculus with 19 samples.

Results

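Respiratory complex I subunits were examined in LSK cells and CMPs in which the lncRNA Spehd was knocked down. The genes are those in the count tables named Ndufa, Ndufb, Ndufc, Ndufs or Ndufv followed by a number, together with Ndufab1. This rule found 37 of the 54352 genes listed, and all 37 passed the filter on low counts in every comparison. They are annotated as protein-coding genes and counted over exons. On GRCm38, those to which most values refer are Ndufv2 (ENSMUSG00000024099.15) at chr17:66078638-66101559, Ndufs1 (ENSMUSG00000025968.16) at chr1:63143596-63176833, Ndufa10 (ENSMUSG00000026260.12) at chr1:92439010-92473860, Ndufs6 (ENSMUSG00000021606.8) at chr13:73319838-73328542, Ndufa9 (ENSMUSG00000000399.10) at chr6:126821721-126849136, all on the minus strand, and Ndufa12 (ENSMUSG00000020022.17) at chr10:94198720-94221443 on the plus strand. The 37 genes comprise the 7 nuclear-encoded core subunits, 9 accessory subunits of the matrix arm, 19 accessory subunits of the membrane arm, Ndufab1 and Ndufa4. Ndufb1 had no row of its own in the tables, and Ndufb1-ps, which had one, did not match the rule and was not counted among the 37.

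RNA-seq was performed on 19 libraries of bone marrow cells sorted from transplanted mice. C57BL6 donor HSCs carried a doxycycline-inducible shRNA, and they had reconstituted sublethally irradiated C57BL/6-CD45.1; cKit-w41 recipients for 10 weeks, without competitor cells. All groups received doxycycline in the food for 6 days, and cells were sorted for zsGreen, which the vector expresses together with the shRNA. The vector drives the doxycycline-responsive activator from an SFFV promoter. LSK is the lineage-negative, Sca1+, cKit+ compartment that contains the HSCs (labelled KLS), and CMP is the common myeloid progenitor. Each cell type carried shRNA 12928-10 or 12928-20 against Spehd (sh10 and sh20) or a control shRNA against Renilla luciferase, so the controls also carried a vector and received doxycycline. CMPs gave 3 sh10, 2 sh20 and 4 Renilla libraries, and LSK cells gave 3 sh10, 3 sh20 and 4 Renilla libraries. The labels mark the replicates by the letters A to D and do not say whether they came from separate animals, so p-values measure only the spread between these samples. Spehd has no count row under that name, and its knockdown was not analysed here.

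Complex I is the entry point of the mitochondrial respiratory chain. It oxidizes NADH in its matrix arm, passes the electrons along iron-sulfur clusters to ubiquinone, and pumps protons through its membrane arm. The core subunits hold the catalytic groups, the accessory subunits are needed for assembly and stability, and the remaining core subunits of the membrane arm are encoded by mitochondrial DNA.

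Promoter sequence was read for the subunits because they showed similar differences between groups. RefSeq windows on GRCm38.p6 were held for 33 of the 37 genes, and Ndufa2, Ndufb9 and Ndufs1 were among the genes without one. The 250 bases before the RefSeq start were searched on both strands for 4 motifs of factors known for genes of the respiratory chain. The NRF1 motif GCGCANGC, or GCNTGCGC on the opposite strand, was present in 8 of the 33 subunits (24.2%) and in 9.38% of 27025 genes. The ETS motif CCGGAAG was found in 3 subunits (9.09%, against 7.83% of all genes), and the ERR motif AAGGTCA in 3 (9.09%, against 4.70%). The YY1 motif AAGATGG was in 0 of 33, against 5.18% of all genes. Any of the 4 motifs was found in 12 subunits (36.4%) and in 23.9% of all genes, and no 2 motifs overlapped in a subunit's window. A match is a description of these letters only.

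The windows printed are those of Ndufs6 and Ndufa5, with the highest log2 fold changes between cell types, Ndufa8, which holds the NRF1 motif more than once, and Ndufa12, with the most negative log2 fold change in CMPs and no match. Capitals mark the NRF1 motif, and each sequence reads 5′ to 3′ towards the start site. Ndufs6 is at chr13:73328483-73328732 (minus strand), Ndufa5 at chr6:24527691-24527940 (minus strand), Ndufa8 at chr2:36049339-36049588 (minus strand) and Ndufa12 at chr10:94198785-94199034 (plus strand). In the GENCODE annotation these genes start further upstream, so the windows lie partly or wholly inside the annotated gene.
Ndufs6: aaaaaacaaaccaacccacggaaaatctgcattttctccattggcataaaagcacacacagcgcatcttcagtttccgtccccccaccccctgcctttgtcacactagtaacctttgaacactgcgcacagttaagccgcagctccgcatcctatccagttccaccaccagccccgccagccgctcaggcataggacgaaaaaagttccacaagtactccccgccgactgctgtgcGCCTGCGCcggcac
Ndufa5: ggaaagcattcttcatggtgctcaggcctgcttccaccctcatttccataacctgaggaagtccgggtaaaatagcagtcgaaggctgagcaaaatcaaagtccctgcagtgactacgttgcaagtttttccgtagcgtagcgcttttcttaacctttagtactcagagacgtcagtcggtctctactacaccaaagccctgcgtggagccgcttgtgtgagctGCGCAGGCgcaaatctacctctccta
Ndufa8: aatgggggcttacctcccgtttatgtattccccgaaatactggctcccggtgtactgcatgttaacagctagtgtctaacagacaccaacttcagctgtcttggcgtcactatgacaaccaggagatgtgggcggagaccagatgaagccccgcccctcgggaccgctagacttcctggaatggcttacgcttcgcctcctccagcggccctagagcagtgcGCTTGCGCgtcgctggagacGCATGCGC
Ndufa12: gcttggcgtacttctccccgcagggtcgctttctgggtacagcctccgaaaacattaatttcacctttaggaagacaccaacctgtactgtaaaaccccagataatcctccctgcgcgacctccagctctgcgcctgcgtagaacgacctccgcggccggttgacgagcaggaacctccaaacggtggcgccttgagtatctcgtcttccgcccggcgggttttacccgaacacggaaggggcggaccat

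Libraries held between 3647318 and 5965155 counts on genes. In CMPs the totals did not overlap between groups, with 3857980 to 4314959 for Renilla and 4918631 to 5965155 for the Spehd shRNAs. In LSK cells they overlapped, with 3647318 to 4967015 and 4649170 to 5617906. The sort labels were checked against marker genes. LSK markers summed to 2585 to 2965 CPM (counts scaled to a common library size, TMM-normalized) in LSK Renilla and to 1653 to 1725 in CMP Renilla, in which Ly6a was between 3.16 and 7.61 CPM. The 7 genes listed for CMPs, among them Mpo and Elane, were not higher there (1421 to 1664 CPM, against 2169 to 2579 in LSK Renilla). Erythroid and megakaryocyte genes were, with 2278 to 2699 CPM against 1038 to 1409. Lymphoid genes reached 151 to 204 CPM in CMP sh20, against 51.4 to 101 in CMP Renilla and 26.3 to 41.8 in CMP sh10. Mature neutrophil genes reached 293 CPM in LSK sh10 B and 310 in LSK Renilla B. LSK sh10 B also stood apart by a low Kit (395 CPM) and Mecom (26.4 CPM), and CMP sh20 B had the lowest Kit (446 CPM) and Mecom (2.37 CPM) among CMPs. In bulk RNA, fewer cells of a type and less RNA per cell cannot be told apart.

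The subunit transcripts were detected in every library, at levels that differed widely between genes. Per kilobase of transcript, the highest levels in CMP Renilla were those of Ndufa4 (196 ± 7.47 CPM per kb, SD, n = 4) and Ndufs7 (194 ± 4.58), which differed by less than their spread. Ndufs7 helps pass electrons to ubiquinone, and Ndufa4 is named as a complex I subunit but is now placed in complex IV. Ndufs8, which carries iron-sulfur clusters, followed with 175 ± 7.16 and Ndufb10 with 166 ± 7.06 CPM per kb. Ndufv1, the subunit that binds NADH and FMN, was at 155 ± 11.3, and its partner Ndufv2 at 95.1 ± 2.21. Ndufs1, the large iron-sulfur subunit, was at 103 ± 9.03, and Ndufs3 at 61.6 ± 3.81 CPM per kb. The core subunits of the matrix arm thus covered a wide range.

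The lowest levels belonged to accessory subunits. Ndufb4 was at 6.30 ± 2.5 CPM per kb in CMP Renilla and at 4.79 ± 1.02 in LSK Renilla, from 11 to 41 counts in a library. It has near-identical copies in the genome, so its reads may be split and its values are uncertain. Ndufs5 was at 28.4 ± 0.884 CPM per kb in CMP Renilla, with 40 to 71 counts over all libraries, Ndufab1, the mitochondrial acyl carrier protein, at 30.5 ± 4.44, Ndufa12 at 36.8 ± 3.76 and Ndufs4 at 51.8 ± 3.21. Ndufa10, Ndufa13, Ndufb2, Ndufb8, Ndufb9 and Ndufc2 overlap another annotated gene on the same strand (for Ndufa10 the microRNA gene Mir6900), and several others overlap a gene on the opposite strand, such as Ndufs6 and Mrpl36 or Ndufs1 and Eef1b2. Counting used default settings, which for HTSeq-count assign reads by strand, while the library kit does not mark strand, so reads of these pairs may be mixed.

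With the Renilla shRNA, CMPs had a higher level of each of the 37 subunits than LSK cells. The question of this comparison is how the genes stand between the compartments in control cells. A positive log2 fold change was found for 37 of 37 subunits, against 48.2% of the 15066 genes tested, with a median of 0.38 against -0.02 for all genes. By edgeR's quasi-likelihood test 21 of 37 were higher at an adjusted p under 0.05, against 11.0% of all genes, and 0 were lower, against 8.73%. An unadjusted p under 0.05 was found for 30 subunits (17.4% of all genes), and DESeq2 called 22 (11.8%). In 30 subunits all 4 CMP libraries lay above all 4 LSK libraries, against 16.4% of all genes. The call passed for 5 of the 7 core subunits, 5 of 9 in the matrix arm and 11 of 19 in the membrane arm.

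Among the core subunits, Ndufs1 was at 298, 263, 259 and 242 CPM in CMP Renilla A to D and at 178, 182, 179 and 187 in LSK Renilla. The LSK libraries were close together and all CMP libraries were above them, with a log2 fold change of 0.55 (SE 0.12, edgeR adjusted p = 0.00469). Ndufv1 was at 270, 275, 236 and 247 CPM in CMPs and at 182, 191, 210 and 192 in LSK cells, a log2 fold change of 0.41 (SE 0.09, edgeR adjusted p = 0.00306). The groups did not overlap for either gene. Ndufv2 (0.30, edgeR adjusted p = 0.0228) and Ndufs7 (0.33, edgeR adjusted p = 0.0390) also passed. Ndufs3, a core subunit of the matrix arm without redox centres of its own, did not (64.4 ± 4.0 against 51.6 ± 3.7 CPM, log2 fold change 0.32, edgeR adjusted p = 0.0766), nor did Ndufs8 (137 ± 5.6 against 119 ± 12.5 CPM, 0.20, edgeR adjusted p = 0.180).

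The widest differences were in the matrix arm. Ndufs6, a zinc-binding accessory subunit, was at 47.7, 56.8, 49.7 and 58.4 CPM in CMP Renilla and at 25.6, 32.9, 27.8 and 34.5 in LSK Renilla. The groups were well separated, with a log2 fold change of 0.81 (SE 0.18, edgeR adjusted p = 0.00522). Ndufa5 was at 49.8, 59.7, 56.6 and 63.6 CPM in CMPs against 28.3, 35.8, 36.6 and 39.7 in LSK cells (0.71, SE 0.16, edgeR adjusted p = 0.00494). Ndufa9, which is needed for the stable joining of the arms, was at 195 ± 6.4 against 157 ± 10.8 CPM (0.32, edgeR adjusted p = 0.0154). Ndufv3, a small subunit bound to the NADH-oxidizing module, was the least different gene, with 89.1 ± 4.6 against 83.4 ± 10.7 CPM and a log2 fold change of 0.10 (edgeR adjusted p = 0.672).

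In the membrane arm Ndufa10 had the smallest p. It was at 203, 200, 197 and 192 CPM in CMP Renilla and at 134, 149, 164 and 150 in LSK Renilla, a log2 fold change of 0.41 (SE 0.07, edgeR adjusted p = 0.00116). Ndufb10 (0.46, edgeR adjusted p = 0.0039), Ndufc2 (0.46, edgeR adjusted p = 0.00726), Ndufb5 (0.54, edgeR adjusted p = 0.0130) and Ndufa1 (0.55, edgeR adjusted p = 0.0297) followed. Ndufab1 (43.2 ± 6.3 against 38.7 ± 3.2 CPM, 0.16) and Ndufa4 (88.4 ± 3.4 against 78.9 ± 9.1 CPM, 0.17) overlapped between the cell types.

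**Figure D1:**
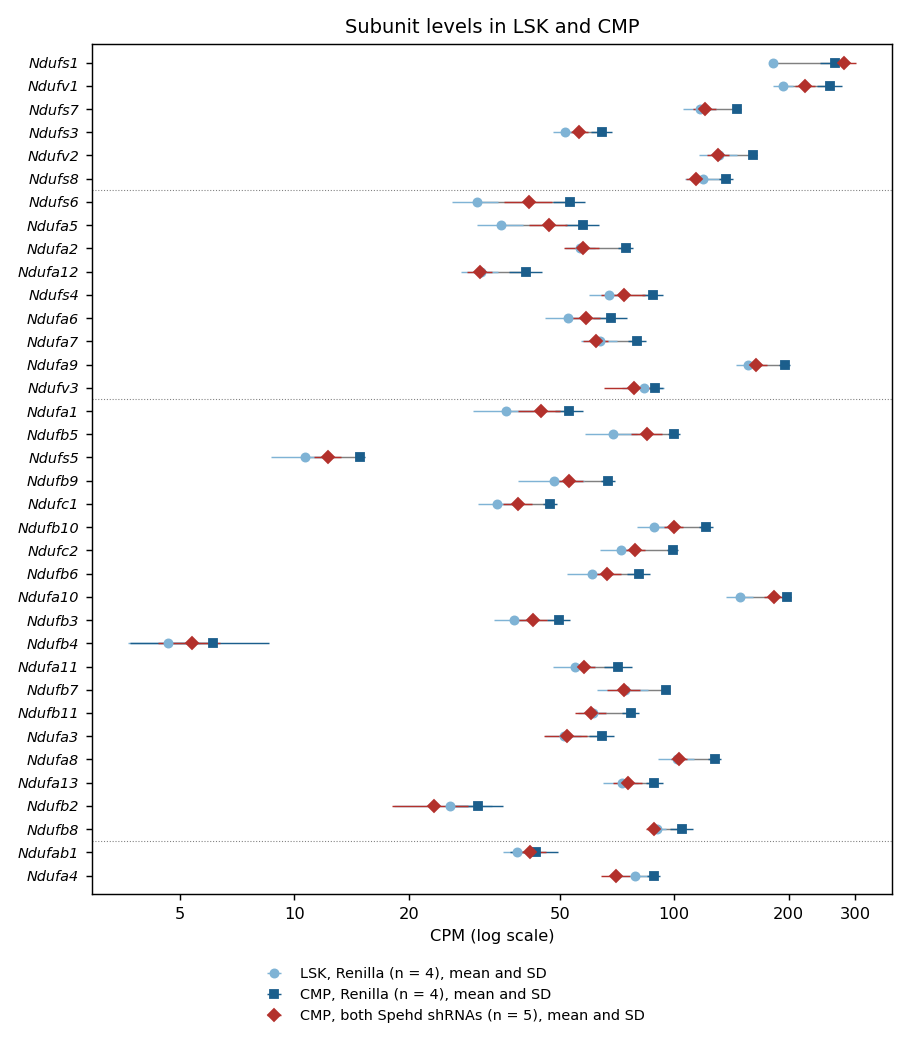
Mean level of 36 of the 37 subunits in CPM on a log scale, with SD, in LSK Renilla (n = 4), CMP Renilla (n = 4) and CMPs with both Spehd shRNAs (n = 5), grouped by role. CMP Renilla lies to the right of LSK Renilla for every gene shown, from 0.10 (Ndufv3) to 0.81 (Ndufs6) on the log2 scale, and by the fitted log2 fold change the CMPs with a Spehd shRNA lie to the left of CMP Renilla for every gene shown but Ndufs1.

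Mean total counts of CMP Renilla relative to LSK Renilla differed by -8.18%. The raw counts on the 37 genes were 14815 ± 705 (SD, n = 4) in CMP Renilla and 12579 ± 1230 in LSK Renilla, and 36 of 37 subunits had more raw counts in CMPs, with a median change of 18.1%. Every fit kept all 37 log2 fold changes positive, with medians of 0.25 to 0.41 over 16 alternatives. The number of calls was less stable. It was 9 without CMP Renilla B (7.95% of all genes), 9 without LSK Renilla A (8%), 10 without LSK Renilla B (8.43%) and 11 without CMP Renilla D (8.92%). It was 12 without CMP Renilla A (8.14%), CMP Renilla C (9.61%) or LSK Renilla D (8.75%), and 18 without LSK Renilla C (9.14%). The share of all genes called higher was thus also below the 11.0% of the full comparison in each of these fits. The part of the erythroid and megakaryocyte genes, which were also higher in CMPs, was not tested.

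Genes that build or complete complex I gave the following in the same comparison. Of 17 assembly factors tested, 8 were called higher in CMPs and 0 lower, with a median log2 fold change of 0.52. These counts and those of the lists that follow stand against the 11.0% of all genes called higher and the 8.73% called lower. The largest were Ndufaf4 (0.87, SE 0.16, edgeR adjusted p = 0.00118) and Dmac1 (0.82, SE 0.14, edgeR adjusted p = 0.000875), whereas Nubpl, which delivers iron-sulfur clusters, was at -0.14 (edgeR adjusted p = 0.745). Of the 7 subunits encoded by mitochondrial DNA, mt-Nd3 and mt-Nd4l had too few counts to be tested, and 1 of the other 5 was called, mt-Nd2 (0.41, edgeR adjusted p = 0.0315). Ndufb1-ps, outside the rule, was at 0.66 (SE 0.16, edgeR adjusted p = 0.00773). Higher levels were called for 3 of 4 complex II genes, 7 of 9 of complex III, 5 of 11 of complex IV, 4 of 16 of the ATP synthase and 50 of 77 mitochondrial ribosomal proteins.

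Upon Spehd knockdown, the mean CPM of most subunits was lower in CMPs, but no subunit passed the test. With both shRNAs as 1 group against Renilla, 36 of 37 log2 fold changes were negative, against 47.1% of the 12912 genes tested, and the median was -0.28 against 0.02 for all genes. By the adjusted p, edgeR called 0 of 37 lower, against 0.0774% of all genes (10 genes), and the smallest adjusted p was 0.0786. In counts simulated for this comparison, the test called 1 of 100 genes changed by 0.3 on the log2 scale and 44 of 100 changed by 1. A p that misses the threshold thus does not show equal levels. An unadjusted p under 0.05 and a negative sign were found for 25 subunits (8.25% of all genes). DESeq2 called 14 of the 35 subunits to which it gave an adjusted p, against 4.80% of all genes. In 21 subunits all 5 knockdown libraries lay below all 4 Renilla libraries, against 6.37% of all genes. The sum of the 9 erythroid and megakaryocyte genes moved with the knockdown without overlap, although single genes such as Epor, Itga2b and Vwf overlapped. It was 1956 to 2049 CPM with sh10 and 2210 to 2220 with sh20, against 2278 to 2699 with Renilla, and their part in these differences was not tested. Role by role the median was -0.22 for the core subunits, -0.29 for the matrix arm and -0.28 for the membrane arm, with an unadjusted p under 0.05 for 5 of 7, 6 of 9 and 13 of 19.

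Ndufv2, which carries an iron-sulfur cluster beside Ndufv1, had the smallest p. It was at 165, 163, 156 and 161 CPM in CMP Renilla, at 145, 129 and 131 in sh10 A to C, and at 123.0 and 126.3 in sh20 B and C. The groups did not overlap, and the log2 fold change was -0.30 (SE 0.07, edgeR adjusted p = 0.0786). Ndufs7 was at 146, 147, 142 and 151 CPM with Renilla and at 135, 118, 116, 122 and 113 with the Spehd shRNAs (-0.28, SE 0.07, edgeR adjusted p = 0.0946). Ndufs8 gave -0.26 (edgeR adjusted p = 0.111), Ndufv1 -0.22 (edgeR adjusted p = 0.133) and Ndufs3 -0.19 (edgeR adjusted p = 0.394). For each of these 5 core subunits the knockdown and Renilla libraries did not overlap.

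Ndufs1 was the exception among the core subunits. It was at 276, 306 and 279 CPM with sh10 and at 251 and 291 with sh20, within the range of the Renilla libraries except for sh10 B, which lay above it. Its log2 fold change was 0.08 (SE 0.08, edgeR adjusted p = 0.657), the only positive value among the 37. Of the accessory subunits, Ndufa12, which caps the matrix arm next to Ndufs4, had the most negative value. It was at 42.4, 40.4, 35.3 and 45.2 CPM with Renilla, at 33.0, 32.2 and 28.4 with sh10 and at 28.3 and 32.3 with sh20 (-0.40, SE 0.13, edgeR adjusted p = 0.165). Ndufa2 (-0.37, edgeR adjusted p = 0.120) and Ndufb2 (-0.38, edgeR adjusted p = 0.394) were next, and the latter overlapped between groups (23.4 ± 5.3 against 30.4 ± 5.0 CPM). At the other end, Ndufa10 was at 184 ± 11.6 against 198 ± 4.5 CPM (-0.11, edgeR adjusted p = 0.414) and Ndufab1 at 41.8 ± 4.2 against 43.2 ± 6.3 (-0.04, edgeR adjusted p = 0.931).

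**Figure D2:**
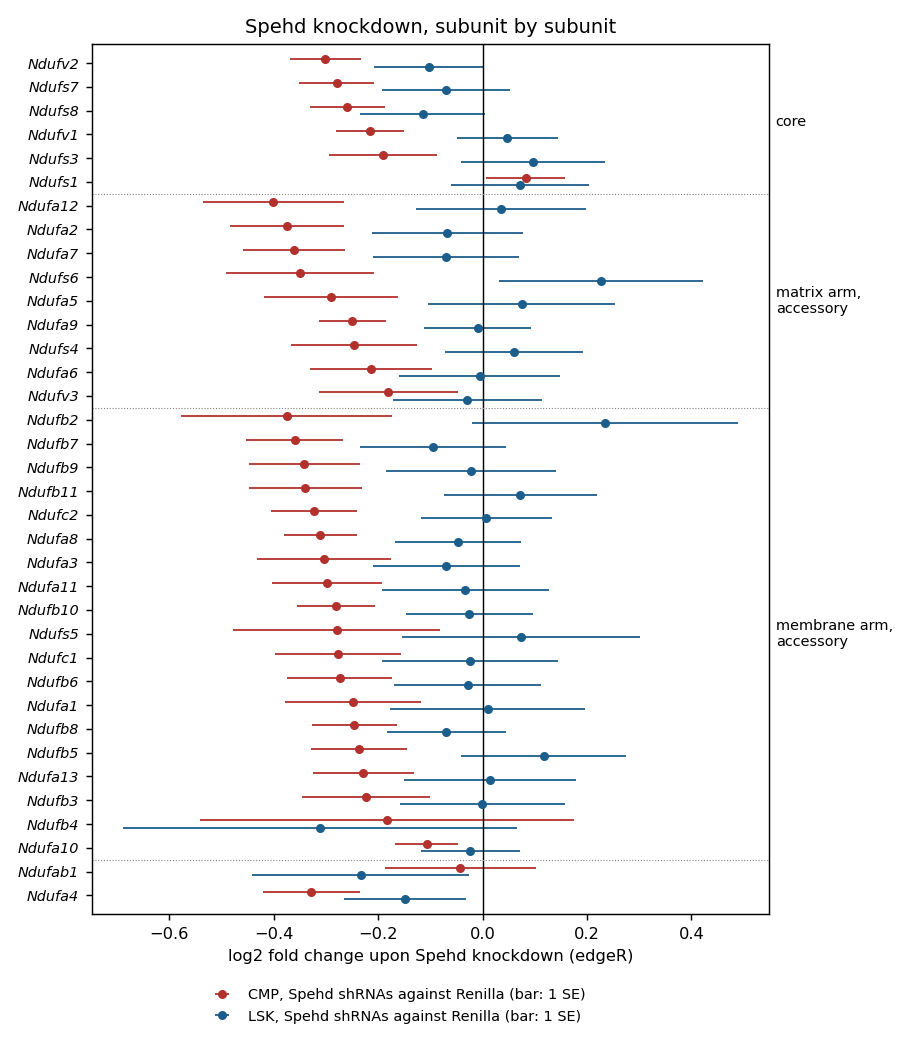
Log2 fold change of 36 of the 37 subunits upon Spehd knockdown (points, bars are 1 SE from edgeR) in CMPs (5 libraries against 4) and LSK cells (6 against 4), ordered by role. In CMPs the values run from -0.40 (Ndufa12) to 0.08 (Ndufs1), the only positive value shown, and in LSK cells they lie on both sides of 0.

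The mean log2 CPM over the 37 genes summarizes each library. It was 6.27, 6.33, 6.27 and 6.39 in CMP Renilla A to D, 6.20, 6.03 and 5.96 in CMP sh10 A to C, and 6.03 and 6.03 in CMP sh20 B and C. All knockdown libraries were below all Renilla libraries, with sh10 A the nearest. LSK Renilla was at 5.76, 5.89, 6.04 and 6.03, LSK sh10 at 5.91, 6.14 and 5.77 and LSK sh20 at 5.90, 5.89 and 5.93. The LSK groups overlapped throughout, and LSK sh10 B had the highest value among LSK libraries.

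**Figure D3:**
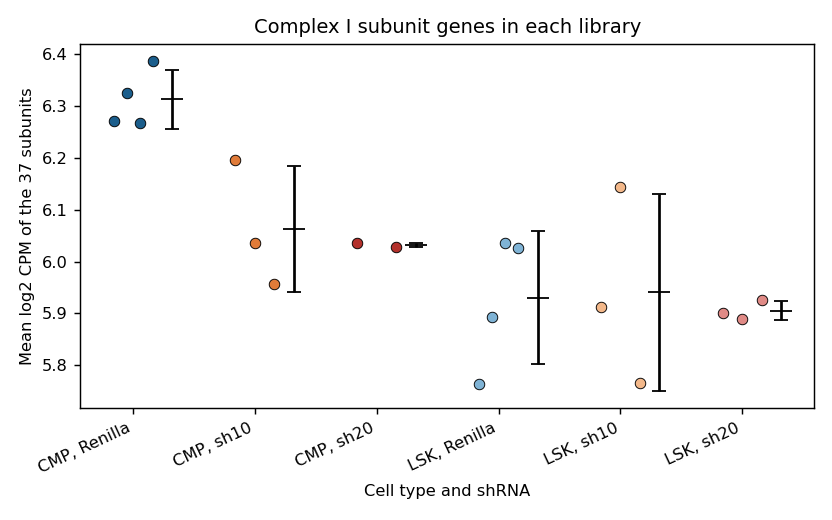
Mean log2 CPM of the 37 subunits in each of the 19 libraries (points), with the group mean and SD. CMP Renilla is at 6.31 ± 0.06 (n = 4), CMP sh10 at 6.06 ± 0.12 (n = 3) and CMP sh20 at 6.03 with 2 nearly equal libraries, and the 3 LSK groups are at 5.94 or below.

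Library size moved with the knockdown in CMPs, and the raw counts gave another direction than the CPM. The Spehd shRNA libraries held 30.3% more counts on genes than the Renilla libraries. Their counts on the 37 subunits were 16141 ± 1433 (SD, n = 5) against 14815 ± 705 (n = 4), and 32 of 37 subunits had more raw counts upon knockdown, with a median change of 5.35%. On the CPM scale but without TMM factors, the summed level of the 37 subunits was 3514 to 3707 in CMP Renilla and 2837 to 3255 with the Spehd shRNAs, without overlap. Within groups, the library with the fewest counts had the highest mean log2 CPM in LSK Renilla, LSK sh10 and CMP sh10 (SD 0.13, 0.19 and 0.12). It had the lowest in LSK sh20 and CMP sh20, where the values were nearly equal (SD 0.019 and 0.0045). In CMP Renilla the library with the most counts, C, was the lowest (6.267), and A, with the fewest, was next (6.271). When the fit of all 19 libraries also took log2 total counts into account, the median of the 37 log2 fold changes in CMPs was -0.04 and 25 were negative, and the median of all genes in that fit was -0.07. Of the 12912 genes tested in CMPs, 7481 were negative in that fit. In the CMP libraries alone, total counts and knockdown cannot be told apart.

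**Figure D4:**
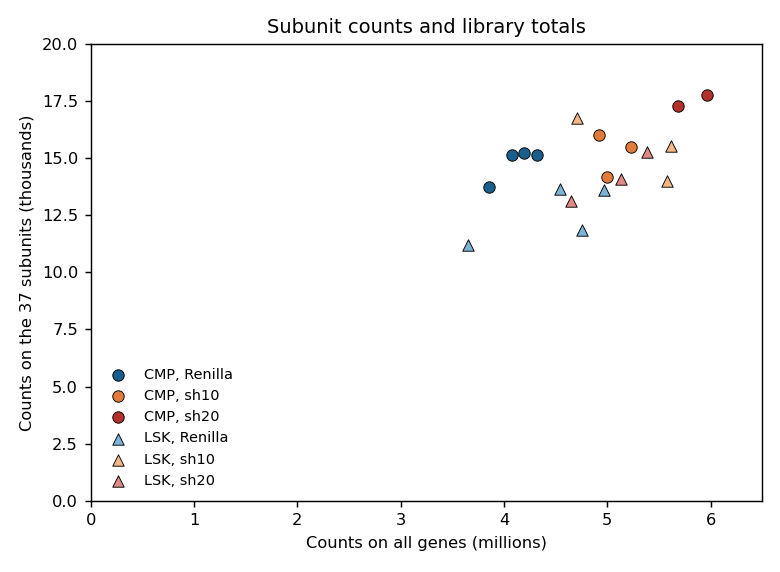
Counts on the 37 subunits against counts on all genes in each library, both axes from 0, circles for CMP and triangles for LSK. The 4 CMP Renilla libraries have the fewest total counts among CMPs and yet 13759 to 15221 subunit counts, while the 2 CMP sh20 libraries have the most of both.

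The log2 fold changes in CMPs also varied with the length of the transcript. Across the 37 subunits, which share the same libraries, the log2 fold change in CMPs correlated with log2 transcript length at r = 0.63 (rho = 0.56), and with the level per kilobase at r = -0.23 (rho = -0.24). The longest transcript, Ndufs1 with 2590 bases, had the only positive value, and Ndufa10, with 2020 bases, was at -0.11. The log2 fold changes between CMP and LSK Renilla gave r = -0.12 with length (rho = -0.11). Correcting each library for its trend over the mean count per exonic kilobase left the median in CMPs at -0.21 with 36 of 37 negative. That offset follows the level per kilobase and not the length, so it does not correct for length. The part of length in the differences was not tested.

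**Figure D5:**
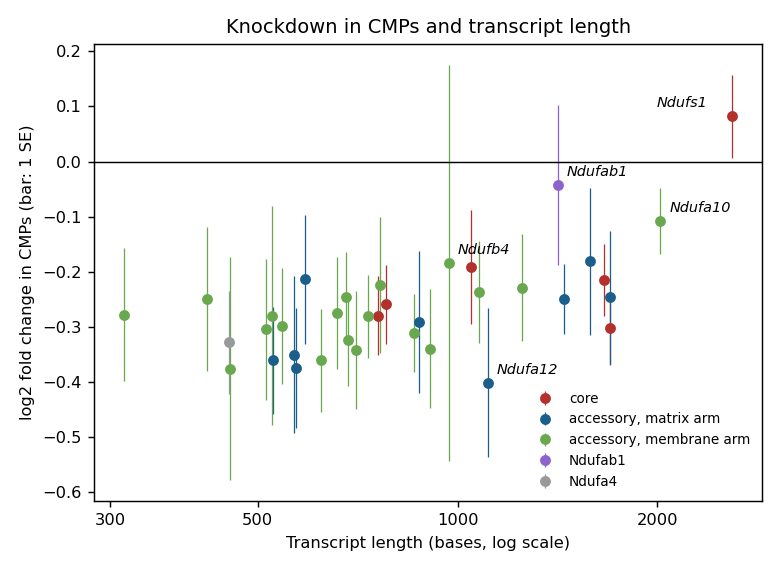
Log2 fold change of 36 of the 37 subunits upon Spehd knockdown in CMPs (bars are 1 SE) against transcript length in bases on a log axis, coloured by role. Transcripts shorter than Ndufs3 (1046 bases) lie between -0.38 (Ndufb2) and -0.18 (Ndufb4), and Ndufs1 and Ndufa10, the longest, lie at 0.08 and -0.11.

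Each shRNA was then compared with the same Renilla libraries, so the comparisons share their controls. With sh10, 36 of 37 log2 fold changes were negative (51.7% of 13824 genes) with a median of -0.26, 21 had an unadjusted p under 0.05 (11.1%), and 24 had no overlap with Renilla (13.0%). edgeR called 0 lower (0.991% of all genes) and DESeq2 called 3 (4.27%). The lowest values with sh10 were those of Ndufa12 (-0.39, edgeR adjusted p = 0.184), Ndufs4 and Ndufb11 (-0.38, edgeR adjusted p = 0.119). The core subunits were at -0.26 (Ndufv2 and Ndufs7), -0.23 (Ndufs8), -0.21 (Ndufs3), -0.17 (Ndufv1) and 0.11 (Ndufs1), with edgeR adjusted p of 0.0836 or more. Ndufa10 was at -0.05 and Ndufab1 at -0.02. Red cell genes (10.0 to 20.4 CPM with sh10, 22.1 to 59.9 with Renilla) and lymphoid genes (26.3 to 41.8 against 51.4 to 101) also had lower sums with sh10, and their part was not tested. With sh20, 34 were negative (49.0%) with a median of -0.30, 20 had an unadjusted p under 0.05 (13.4%), and 30 had no overlap (17.6%). edgeR called 5 of 37 lower (4.27% of all genes) and DESeq2 called 6 (7.11%).

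The 5 subunits called lower with sh20 were the core subunit Ndufv2, Ndufa9 of the matrix arm, Ndufa8 and Ndufb7 of the membrane arm, and Ndufa4. Ndufa9 was at 155 and 153 CPM in sh20 B and C, against 195, 201, 187 and 200 in Renilla, and its log2 fold change was -0.33 (SE 0.07, edgeR adjusted p = 0.0337). Ndufv2 was at 125 ± 2.3 against 161 ± 3.7 CPM (-0.36, edgeR adjusted p = 0.0356), and Ndufa8 at 98.7 ± 3.7 against 128 ± 4.8 (-0.36, edgeR adjusted p = 0.0451). Ndufb7, a membrane-arm subunit on the side of the intermembrane space, was at 68.6 and 68.7 CPM against 92.7, 95.5, 95.8 and 96.2 (-0.46, edgeR adjusted p = 0.0482). Ndufa4 was at 64.6 and 64.1 against 87.4, 92.1, 84.2 and 89.8 CPM (-0.44, edgeR adjusted p = 0.0450). Its raw counts overlapped (381 and 365 against 332, 378, 363 and 366) and ran from 332 to 405 over all libraries. Library size and knockdown cannot be told apart in these CMP libraries. In CPM the sh20 libraries lay below every Renilla library for all 5. The most negative value, that of Ndufb2, did not pass (21.0 ± 2.1 against 30.4 ± 5.0 CPM, -0.52, edgeR adjusted p = 0.250), nor did Ndufs7 (-0.31, edgeR adjusted p = 0.0782), Ndufs8 (-0.30, edgeR adjusted p = 0.0881) or Ndufv1 (-0.28, edgeR adjusted p = 0.0643). Ndufs3 was at -0.16 and Ndufs1 at 0.04.

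The calls with sh20 changed when single libraries were left out. The count of 5 became 0 without sh20 B (3.53% of all genes called lower), 0 without Renilla A (2.51%), B (2.4%) or D (2.32%) and 1 without Renilla C (3.52%). Without sh20 C it was 2, when 12.3% of all genes were called lower, a larger share than that of the subunits. The median stayed between -0.33 and -0.26. Without an sh20 library that group is a single library, which is then assumed to vary like the other CMP groups of the same fit. With log2 total counts as a covariate 0 were called (0.119% of all genes) and the median was -0.01. The count was also 0 in the fit of all 19 libraries (3.16%), without a low count filter (1.95%) and with a replicate block (0%). Both sh20 libraries had lymphoid genes above the other CMP libraries, Cd3e and Cd3g in B and Cd79a and Ebf1 in C, and B had the lowest Kit and Mecom. The CMP list summed to 1111 to 1366 CPM with sh20 against 1421 to 1664 with Renilla, and the LSK list to 1186 to 1402 against 1653 to 1725, without overlap, as for the erythroid and megakaryocyte genes above. The part of these genes in the result was not tested.

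Between the shRNAs, 27 of 37 subunits were lower with sh20 than with sh10 (49.5% of all genes), with a median of -0.05. edgeR called 0 lower (3.64%) and 0 higher (2.77%), and DESeq2 called 0 (1019 lower and 913 higher of 13807 genes). The direction turned without sh10 A, to a median of 0.03 with 14 negative, and with log2 total counts as a covariate, to 0.06 with 7 negative (7233 of 13824 genes). An unadjusted p under 0.05 was found for 2 subunits, both higher with sh20 (12.9% of all genes). Ndufv3 was at 83.2 and 97.6 CPM with sh20 and at 77.0, 70.3 and 63.3 with sh10, a log2 fold change of 0.38 (edgeR adjusted p = 0.107). Ndufs4, an accessory subunit whose loss disturbs complex I assembly, was at 83.0 and 84.5 against 73.4, 62.9 and 65.4 CPM (0.33, edgeR adjusted p = 0.122). These genes did not overlap between the shRNAs. Wholly higher with sh20 were 3 of 37 subunits, against 2562 of 13824 genes. The lowest values were those of Ndufb2 (-0.24), Ndufa4 (-0.19) and Ndufb7 (-0.16), and the core subunits ran from -0.11 (Ndufv1) and -0.10 (Ndufv2) over -0.07 (Ndufs1), -0.06 (Ndufs8) and -0.05 (Ndufs7) to 0.05 (Ndufs3). Against Renilla, Ndufs4 was at -0.39 with sh10, the smallest p of that comparison (SE 0.10, edgeR adjusted p = 0.0794), and at -0.06 with sh20, and Ndufv3 was at -0.35 with sh10 and 0.04 with sh20.

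Other genes of complex I and of the chain gave these values in CMPs. The 17 assembly factors had a median log2 fold change of 0.05, with 8 negative, and 0 were called. Ndufaf2, a chaperone related to Ndufa12, was at -0.42 (SE 0.15, edgeR adjusted p = 0.178), and Acad9, which assembles the membrane arm, at 0.23 (SE 0.09, edgeR adjusted p = 0.251). The 5 tested mitochondrial genes had a median of -0.15, and mt-Nd1 was the lowest (-0.29, SE 0.07, edgeR adjusted p = 0.0796). Ndufb1-ps was at -0.22 (SE 0.11, edgeR adjusted p = 0.355). The medians were -0.27 for the 4 genes of complex II, -0.31 for 9 of complex III, -0.32 for 11 of complex IV, -0.31 for 15 of the ATP synthase and -0.12 for 77 mitochondrial ribosomal proteins, again with 0 called by edgeR. Negative values were found for 4, 9, 11, 14 and 61 of them, in that order, and an unadjusted p under 0.05 in that direction for 3, 8, 9, 11 and 23 (8.25% of all genes). DESeq2 called 3, 5, 8, 8 and 9 lower (4.80% of all genes). With sh20 alone, where 4.27% of all genes were called lower, edgeR called mt-Nd1 (-0.40, edgeR adjusted p = 0.0118), 4 of 4 genes of complex II, 2 of 9 of complex III, 3 of 11 of complex IV and 5 of 16 of the ATP synthase. It called 2 of 77 mitochondrial ribosomal proteins, a smaller share than that of all genes. With sh10 alone it called 2 of 16 genes of the ATP synthase (0.991% of all genes). Raw counts of mt-Nd1 were 871 and 857 with sh20, against 764, 834, 830 and 796 with Renilla. In the fit of both shRNAs, of the assembly factors 2 and of the mitochondrial genes 2 had an unadjusted p under 0.05 with a negative sign, and DESeq2 called 0 and 1.

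In LSK cells the log2 fold changes of the subunits lay on both sides of 0. Upon knockdown with both shRNAs, 22 of 37 log2 fold changes were negative (49.1% of 13441 genes), the median was -0.02, and edgeR called 0 subunits (0% of all genes, smallest adjusted p 0.998). With log2 total counts as a covariate 2 were negative (6936 of 13441 genes), with a median of 0.13. An unadjusted p under 0.05 was found for 0 subunits in either direction (1.81% of all genes lower, 1.85% higher), 0 lay wholly below Renilla (0.409%), and DESeq2 called 0 (0 of 13438 genes). Ndufv2 was at 119, 122, 152 and 132 CPM in LSK Renilla and between 113 and 132 in the 6 knockdown libraries (-0.10). The groups overlapped, and Renilla C was the highest. The lowest value was that of Ndufb4 (-0.31, SE 0.38), from few counts. Among subunits with a mean of at least 50 counts, the values ran from -0.23 for Ndufab1 and -0.15 for Ndufa4 to 0.23 for Ndufs6 and Ndufb2, each with an edgeR adjusted p of 0.998. Core subunits were at -0.11 (Ndufs8), -0.07 (Ndufs7), 0.05 (Ndufv1), 0.07 (Ndufs1) and 0.10 (Ndufs3). With SEs of 0.09 to 0.38 a p that misses the threshold does not show equal levels. Sums of the LSK list were 1921 to 2547 CPM with sh10 and 2473 to 2539 with sh20, against 2585 to 2965 with Renilla. For the CMP list they were 1926 to 2104 and 2103 to 2151, against 2169 to 2579. Lymphoid genes were at 81.6 to 90.7 CPM with sh20, against 62.7 to 73.6, and overlapped with sh10. The other marker lists overlapped with Renilla. The part of these genes was not tested.

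With sh10 in LSK cells 13 were negative (51.9%), the median was 0.02 and edgeR called 0 (0%, smallest adjusted p 0.995). An unadjusted p under 0.05 was found for 0 (201 lower and 256 higher of 13828 genes), and DESeq2 called 0 (3 lower and 0 higher of 13808). With sh20 25 were negative (49.1%), the median was -0.07 and edgeR called 0 (0%, smallest adjusted p 0.827). Here too 0 had an unadjusted p under 0.05 (709 lower and 443 higher of 13828 genes), and DESeq2 called 0 (138 lower and 46 higher of 13808). With sh10 and sh20 in that order, the core subunits were at -0.12 and -0.09 (Ndufv2), -0.09 and -0.05 (Ndufs7), -0.08 and -0.16 (Ndufs8), -0.03 and 0.16 (Ndufs1), 0.04 and 0.15 (Ndufs3), and 0.05 and 0.05 (Ndufv1). The extremes among subunits with a mean of at least 50 counts were Ndufab1 (-0.28) and Ndufs6 (0.30) with sh10, and Ndufab1 (-0.19) and Ndufb2 (0.37) with sh20. When 1 library was left out, the median ran from -0.12 (without LSK sh10 B) to 0.11 (without LSK sh10 C) with sh10, and from -0.09 (without LSK sh10 B) to 0.03 (without LSK Renilla C) with both shRNAs, so its sign was not stable. With log2 total counts as a covariate, 4 were negative with sh10 (7264 of 13828 genes, median of the subunits 0.17). With sh20, 6 were negative in that fit (6665 of 13828 genes, median of the subunits 0.06).

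The difference between the effects in CMPs and LSK cells was tested as an interaction over all 19 libraries. It was negative for 35 of 37 subunits (54.1% of all genes), with a median of -0.27 against -0.04 for all genes. edgeR called 0 (0.0531% of all genes) and DESeq2 called 0 (0.479%), and 8 had an unadjusted p under 0.05 with a negative sign (6.49%). Ndufv1 was at -0.29 (edgeR adjusted p = 0.430), Ndufs6 at -0.58 (edgeR adjusted p = 0.445) and Ndufb2 at -0.64 (edgeR adjusted p = 0.520). Ndufa12 was at -0.45, Ndufs3 at -0.29, Ndufs7 at -0.23, Ndufv2 at -0.22, Ndufs8 at -0.16 and Ndufa10 at -0.11. Ndufs1 was at -0.01, and Ndufab1, at 0.17, was 1 of the 2 positive subunits, with Ndufb4. A larger effect in CMPs was thus not shown for any single subunit. The median was -0.20 without LSK sh10 B, and -0.15 with log2 total counts as a covariate.

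With the Spehd shRNAs the step from LSK to CMP was also measured. With sh10, 30 of 37 subunits were higher in CMPs (50.5% of all genes) with a median of 0.11. edgeR called 2 (7.51%), which were also the 2 with an unadjusted p under 0.05 (14.5%). Ndufs1 was at 276, 306 and 279 CPM in CMP sh10 and at 201, 129 and 203 in LSK sh10 (0.69, SE 0.14, edgeR adjusted p = 0.00284). Ndufa10 was at 195, 197 and 182 against 150, 163 and 138 CPM (0.35, edgeR adjusted p = 0.0103). Neither overlapped between cell types, and 3 of 37 subunits were wholly higher in CMPs, against 2922 of 15066 genes. LSK sh10 B was the lowest library for Ndufs1 and the highest LSK sh10 library for Ndufa10. The count of 2 became 4, and the median 0.25, without LSK sh10 B, when 9.44% of all genes were called higher. It was 1 without LSK sh10 A (6.58%), CMP sh10 A (4.87%) or CMP sh10 B (3.97%), so the share of all genes moved in the same direction. The median was 0.02 without CMP sh10 A or LSK sh10 C, with 14 and 16 of 37 negative. Upper quartile scaling turned 13 of 37 signs, and the offset per exonic base turned 9.

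With sh20, 29 of 37 were higher in CMPs (48.4%) with a median of 0.12. edgeR called 0 (5.94%), DESeq2 called 0 (1123 of 15045 genes higher), and 2 had an unadjusted p under 0.05 (12.7%). These were Ndufa10 (0.26, edgeR adjusted p = 0.0821) and Ndufs1 (0.39, edgeR adjusted p = 0.105). Ndufb2 had the lowest value (-0.69, edgeR adjusted p = 0.177), with 19.5 and 22.5 CPM in CMP sh20 against 23.5, 28.6 and 49.2 in LSK sh20. LSK sh20 C stood well above the other libraries for this gene. With sh10 the lowest value was that of Ndufv3 (-0.25, edgeR adjusted p = 0.280). The values with Renilla, sh10 and sh20 were 0.41, 0.20 and 0.04 for Ndufv1 and 0.81, 0.18 and 0.28 for Ndufs6. Only the comparison of knockdown effects above tests whether these steps differ.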

How the data were processed

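RNA was prepared from sorted cells with a NucleoSpin RNA XS kit, made into libraries with SMART-Seq v4 and sequenced on an Illumina HiSeq. The authors aligned reads to mm10 with STAR, used Picard to take out duplicates, and obtained gene counts from HTSeq-count on GENCODE vM11, with default settings. The deposited values are raw counts per gene, 1 table for each of the 19 libraries. Reads on no feature, 51.9% to 53.8% of those uniquely assigned, stayed out of library sizes and tests. All deposited columns belonged to a sample.

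Genes were filtered by filterByExpr (minimum count 10, minimum total 15), scaled by TMM and tested two-sided with edgeR 4.0.16 (glmQLFit, limma 3.58.1, R 4.3.3), with Benjamini-Hochberg adjustment over all genes tested and a threshold of 0.05. The fits within a cell type used its libraries only, those between cell types and the interaction used all 19. CPM values are TMM-normalized over all 19 libraries, with a prior count of 2 for log2 CPM. DESeq2 1.42.0, DESeq2 size factors, upper quartile scaling, other filters, a replicate block, an offset per exonic base, log2 total counts as a covariate, other choices of samples and the omission of each library were alternatives. DESeq2 gives no adjusted p to some genes, and its shares are of the genes tested by edgeR to which it gave one. Scripts were tested on simulated data. Tables and plots were made with Python 3.11.15, numpy 2.4.6, pandas 2.3.3, scipy 1.17.1 and matplotlib 3.10.9.

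Gene positions and lengths came from GENCODE vM21 on GRCm38, where 53775 of 54352 genes matched, and a transcript's length is that of the shortest APPRIS principal transcript. Genes were named from the core subunits, except 1 that is not reported by name here, and from, per comparison, up to 10 called subunits by smallest p, and the 3 lowest and 3 highest log2 fold changes among those with a mean of at least 50 counts. Other subunits and genes were named after their values were seen. The subunits and gene lists were chosen with earlier results of these data known.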

Additional observations from a re-analysis of the deposited data

Results flagged for a closer look

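In 78 groups of 4 libraries tested for a library far from the others, 2 were past Dixon's 95% critical value, where chance gives about 1 in 20. Ndufs4 was at 79.8 CPM in CMP Renilla A, below the 89.8 to 91.5 CPM of the other CMP Renilla libraries. Ndufv3 was at 67.4 CPM in LSK Renilla A, below the 87.8 to 89.7 CPM of the other LSK Renilla libraries.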

How the results depend on the processing

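The subunits were described at 3647318 to 5965155 counts per library and 2 to 4 libraries per group, which limits the calls of single subunits, above all of Ndufb4 and Ndufs5. For Spehd knockdown in CMPs (0 called), 6 subunits were called lower with upper quartile scaling (2.2% of all genes), 14 by DESeq2 (4.80%) and 5 with the shRNAs as separate groups (3.52%), and the median was -0.0393 with log2 total counts as a covariate. For sh10 in CMPs (0 called), 1 was called lower with upper quartile scaling (2.45% of all genes) and 3 by DESeq2 (4.27%), and the median was -0.0632 with the covariate. For sh20 in CMPs (5 called), 3 were called with DESeq2 size factors (3.9% of all genes), 10 with upper quartile scaling (6.15%), 0 without a filter (1.95%), 1 with the offset (1.98%), 0 with the covariate (0.119%) or all 19 libraries (3.16%), and 0 to 2 when 1 library was left out (2.32% to 12.3%). Its median was -0.35 with upper quartile scaling, -0.16 with the offset and -0.0129 with the covariate. The covariate gave medians of 0.064 for sh20 against sh10, 0.127 for both shRNAs, 0.169 for sh10 and 0.0599 for sh20 in LSK cells, and -0.15 for the interaction. For CMP against LSK Renilla (21 called, 11.0% of all genes), 9 were called with upper quartile scaling (8.04% of all genes), 7 without a filter (3.37%), 12 with at least 10 counts in every library (11.5%), 9 with the offset (8.81%, median 0.25), 12 with the covariate (9.35%), and 9 to 18 when 1 library was left out (7.95% to 9.61%). For CMP against LSK with sh10 (2 called), 1 was called with upper quartile scaling (5.07% of all genes, median -0.02, against -0.11 for all genes), without a filter (3.45%) or with 10 counts in every library (8.35%), and 1 to 4 when 1 library was left out (3.97% to 9.44%). With sh20, 1 was called with the covariate (4.26%), and the median was 0.0793 with upper quartile scaling, 0.103 without a filter, 0.243 with the covariate and 0.0741 to 0.149 when 1 library was left out. For knockdown in CMPs, 13 of 37 signs turned with the covariate, including those of Ndufs1 (-0.0393), Ndufs7 (0.0407), Ndufs8 (0.0341) and Ndufa10 (0.0265), and with sh20 17 of 37, including that of Ndufa8 (0.0218), the only one of the 5 called that turned. Ndufab1 was between -0.138 and 0.0129 when 1 library was left out, and turned positive without CMP sh20 B (0.0100), CMP Renilla A (0.0129) or CMP Renilla D (0.0029). The cause was not tested.

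The labels do not say that libraries of the same letter share an animal. Across cell types, the correlation of their deviations was -0.000694 to 0.21 (median 0.0522) for the same letter and shRNA. For other letters with the same shRNA it was -0.169 to 0.0901 (median -0.0269). For CMP against LSK Renilla, 14 subunits were called with the replicate block (9.73% of all genes), against 21 without it. With the replicate block, 0 of all 13824 genes were called for sh20 in CMPs, so every call of that comparison was lost and not those of the subunits alone, and the median of the subunits was -0.25, the median for CMP against LSK with sh20 was 0.0905, and Ndufab1 turned to 0.0275 for knockdown in CMPs.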
